A study of Mus musculus with 6 samples.

Results

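NRF2, encoded by Nfe2l2, is a transcription factor that switches on genes against oxidative stress. In resting cells KEAP1 binds NRF2 and hands it to a CUL3 ubiquitin ligase for degradation, and oxidants or electrophiles that modify KEAP1 let NRF2 build up, pair with small MAF proteins and bind antioxidant response elements (AREs) in DNA. Its target genes make glutathione, reduce thioredoxin and peroxiredoxins, degrade haem and detoxify quinones. NRF2 is regulated largely through protein stability, which RNA counts do not measure. The genes described here were chosen by name, with earlier results of these data known. They are Nfe2l2, its inhibitor Keap1 and the targets Gclc, Gclm, Gsr, Txnrd1, Prdx1, Srxn1, Hmox1 and Nqo1. All 10 were found among the 15634 genes listed, and all 10 passed the filter on low counts, as did 15547 genes in all.

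RNA was sequenced from mesenchymal stem cells (MSCs, adherent stromal cells) of the bone marrow of wild-type C57BL/6J mice, cultured with 15% fetal bovine serum. Cells of the 3 TNF libraries had received the inflammatory cytokine TNF-α (10 ng/mL) for 24 h, and those of the 3 Control libraries had no treatment. The labels do not say whether libraries came from separate cultures or animals, so p-values measure only the spread between these samples. Total counts ranged from 45629973 to 55149746 in TNF libraries and from 54141846 to 77142418 in Control libraries.

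Several features of the libraries bear on the values below. Reads of 18S ribosomal RNA took 19.4% of the counts in TNF library 2 and 1.10% to 3.55% in the other libraries. Control library 2 had the most mitochondrial mRNA, 4.45% of its counts, against 1.59% to 2.16% elsewhere. All 12 stromal markers looked for were listed. In TNF 4 of them rose and 2 fell (edgeR adjusted p under 0.05), 33.3% and 16.7% against 16% and 16.4% of all tested genes. CPM are counts scaled to effective library size by TMM factors. Those of the 12 markers summed to 7775 to 8152 in TNF and to 10033 to 13877 in Control libraries. Col1a1 made up the largest part of these sums, with 3938 ± 109 CPM in TNF and 8204 ± 1686 CPM in Control libraries (SD, n = 3 each). The markers that rose were Vcam1, Cd44, Pdgfra and Lepr, and those that fell were Col1a1 and Thy1. Pdgfrb, a receptor of marrow stromal cells, had 351 ± 22 CPM in TNF and 366 ± 11.4 CPM in Control libraries (SD, n = 3 each), and Pdgfra, a related receptor, had 57.2 ± 7.28 CPM in TNF and 28 ± 3.32 CPM in Control libraries. Thy1, a defining surface marker of MSCs, had only 2.51 ± 0.628 CPM in TNF and 4.78 ± 1.35 CPM in Control libraries. All 15 macrophage markers were also listed, and 2 of them rose (Csf1r and Cd14) while 7 fell, with a median log2 fold change of -0.53. The largest falls were those of Cx3cr1 (-1.95), C1qc (-1.46), C1qb (-1.35) and Mrc1 (-1.33), named after their values were seen. The shares of 13.3% higher and 46.7% lower stand against 16% and 16.4% of all tested genes. Csf1r, the receptor that macrophages need to survive, had 322 ± 23.5 CPM in TNF and 251 ± 7.27 CPM in Control libraries (n = 3 each). Cd68 had 91 ± 8.5 CPM in TNF and 157 ± 41.9 CPM in Control libraries, Adgre1 had 87.6 ± 4.16 CPM in TNF and 111 ± 21.6 CPM in Control libraries, and Ptprc, the leukocyte antigen CD45, had 36.9 ± 3.9 CPM in TNF and 31.2 ± 6.05 CPM in Control libraries. Macrophage transcripts were thus present in both groups, and in bulk RNA fewer cells of a type cannot be told apart from less RNA per cell. The 2 neutrophil markers listed summed to at most 2.6 CPM and the 1 endothelial marker to at most 0.316 CPM, and none of the lymphocyte or red cell markers looked for was listed.

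Promoters of 7 of the 10 genes were matched by symbol in RefSeq (build GRCm38.p6, whereas the counts rest on GRCm39 per the submitters' processing notes). They were searched on both strands, from 250 bases before to 50 bases after the annotated start. The letters sought were the ARE core TGACNNNGC and the element TGANTCAGC, to which NRF2 with a small MAF protein can bind. TGANTCAGC matches the ARE core only where its N is C. TGANTCAGC contains the AP-1 motif TGANTCA, which was searched as well. The promoters of Srxn1, Prdx1 and Gclm are shown because these genes had the largest differences between groups, and that of Nqo1 because it did not follow them. The 250 bases before the start are given 5′ to 3′ on the gene's strand, with matches to either element in capitals.
Srxn1 (chr2:152105274-152105523, plus strand): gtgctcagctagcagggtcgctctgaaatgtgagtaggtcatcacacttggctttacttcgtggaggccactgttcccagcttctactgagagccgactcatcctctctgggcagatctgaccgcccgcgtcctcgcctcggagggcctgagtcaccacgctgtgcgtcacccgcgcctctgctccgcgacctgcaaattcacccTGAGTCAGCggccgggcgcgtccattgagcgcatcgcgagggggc
Prdx1 (chr4:116685349-116685598, plus strand): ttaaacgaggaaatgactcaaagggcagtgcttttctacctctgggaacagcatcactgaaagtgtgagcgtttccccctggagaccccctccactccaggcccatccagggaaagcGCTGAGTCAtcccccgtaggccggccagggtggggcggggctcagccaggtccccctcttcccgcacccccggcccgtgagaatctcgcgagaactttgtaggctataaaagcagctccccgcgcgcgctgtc
Gclm (chr3:122245307-122245556, plus strand): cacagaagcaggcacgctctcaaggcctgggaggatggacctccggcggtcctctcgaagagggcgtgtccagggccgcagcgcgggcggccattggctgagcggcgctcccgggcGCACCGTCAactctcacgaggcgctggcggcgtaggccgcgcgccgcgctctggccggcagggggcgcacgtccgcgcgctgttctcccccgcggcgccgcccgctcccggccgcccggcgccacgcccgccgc
Nqo1 (chr8:107403206-107403455, minus strand): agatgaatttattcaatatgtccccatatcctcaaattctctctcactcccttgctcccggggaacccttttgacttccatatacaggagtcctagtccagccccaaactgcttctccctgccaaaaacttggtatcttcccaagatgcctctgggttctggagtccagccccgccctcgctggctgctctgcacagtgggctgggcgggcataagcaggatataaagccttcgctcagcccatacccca

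The Srxn1 promoter held TGAGTCAGC 45 bases before the start, which does not match the ARE core as searched. Its 1 ARE core lay 29 bases after the start. In Prdx1 the complement of TGACTCAGC lay 133 bases before the start and matched both searches. Gclm carried an ARE core on the opposite strand, TGACGGTGC, 134 bases before the start. Nfe2l2 held 1 ARE core and so did 1 of the 3 annotated promoters of Txnrd1. The ARE core was thus present in 5 of the 9 annotated promoters of these 7 genes, and in 12.4% of all 32851 promoters of the same length. The genes were chosen by name as NRF2, its inhibitor and its targets, so this comparison is a description and no test. The letters TGANTCAGC were chosen after the promoters were seen, so the same holds for the comparison of their shares. TGANTCAGC was present in 2 of the 9, those of Srxn1 and Prdx1, and in 1.19% of all promoters. TGANTCA was found in the same 2 promoters, where it overlapped TGANTCAGC and occurred at 1 further place each, and in 7.81% of all promoters. The windows of Nqo1 and Keap1 held none of these letters, which says nothing of sites outside them.

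TNF libraries were compared with Control libraries to see which of these transcripts differ after stimulation. Of the 10 genes, 7 rose in TNF and 0 fell: Nfe2l2 itself, Gclm, Gsr, Txnrd1, Prdx1, Srxn1 and Hmox1, by 1.52-fold to 2.12-fold. Keap1, Gclc and Nqo1 did not pass the test. The quasi-likelihood test of edgeR, with p-values adjusted by Benjamini and Hochberg's method over all genes, called 16% of all tested genes higher in TNF and 16.4% lower. The share of higher genes was thus 70% here and 16% in the background. Because the genes were chosen with earlier results of these data known, these shares describe the set and do not test it. The median log2 fold change was 0.67 over the 10 genes and -0.005 over all tested genes. In the same 7 genes the lowest TNF library lay above the highest Control library, which held for 24% of tested genes. With plain library totals as the scale, 1612 of all genes were called higher and 2571 lower: higher genes made up 38.5% of the calls, and 49.4% with the TMM scale. The 10 genes gave 7 higher and 0 lower on either scale.

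**Figure D1:**
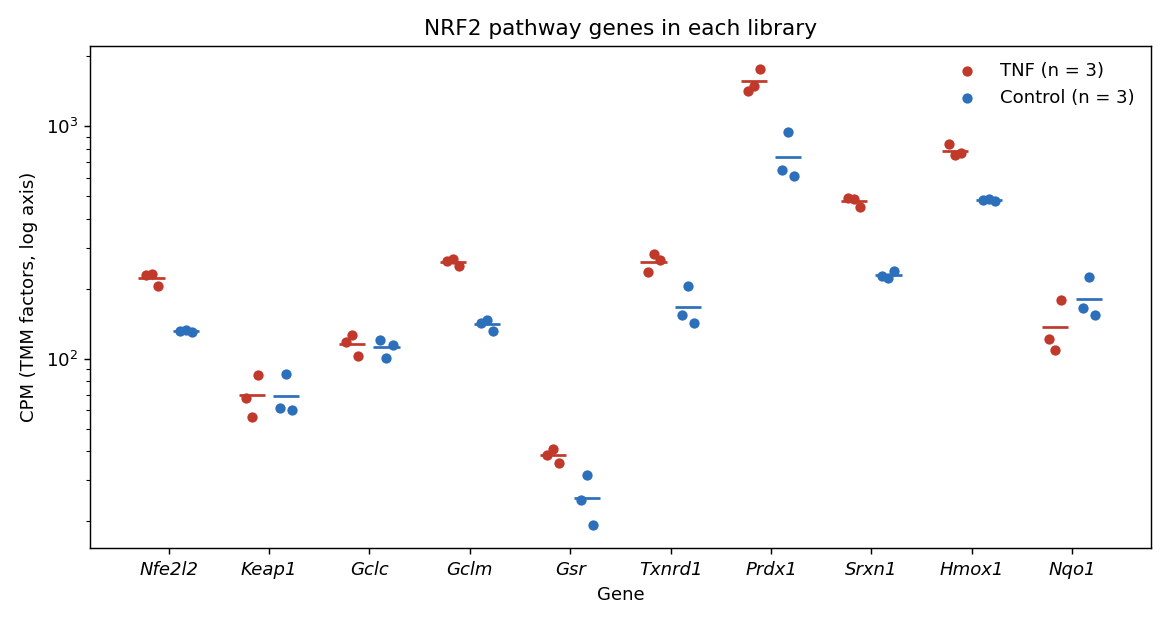
CPM on a log axis in each of the 3 TNF (left, red) and 3 Control (right, blue) libraries for the 10 genes, with bars at group means. The groups do not overlap in 7 genes and overlap in Keap1, Gclc and Nqo1.

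Nfe2l2 had 230, 231 and 205 CPM in TNF libraries 1, 2 and 3, against 132, 133 and 130 CPM in Control libraries 1, 2 and 3. All TNF libraries lay above all Control libraries, and the Control libraries were almost equal. The fitted log2 fold change was 0.75 ± 0.09 (SE; adjusted p = 0.000223 by edgeR). Keap1, the inhibitor, had 67.6, 56.2 and 85.1 CPM in TNF libraries 1, 2 and 3, against 61.2, 86.3 and 60.0 CPM in Control libraries 1, 2 and 3. The groups overlapped throughout, with TNF library 3 and Control library 2 the high ones. Keap1 shares 510 exonic bases with the antisense gene Gm16754 in GENCODE M21, and whether counting used strand is not given in the sources used here, which bears on its counts and on ratios to it. The difference was 0.01 ± 0.18 on the log2 scale, with an approximate 95% interval of -0.41 to 0.43 (edgeR adjusted p = 0.971), which spans changes of both signs. Without both libraries numbered 2, Keap1 was higher in TNF (0.34, edgeR adjusted p = 0.0322), and its sign turned under library totals and in the TPM fits. TPM, which also accounts for transcript length, put the ratio of Nfe2l2 to Keap1 at 4.44, 5.36 and 3.17 in TNF libraries 1, 2 and 3, against 2.85, 2.04 and 2.84 in Control libraries 1, 2 and 3. These ratios did not overlap between groups, and the two-sided exact permutation test gave p = 0.1, the smallest that 3 against 3 libraries allow (0.125 adjusted over the 5 ratios computed here).

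Glutathione is made in its limiting step by glutamate-cysteine ligase, an enzyme of a catalytic subunit, Gclc, and a modifier subunit, Gclm. The modifier rose and the catalytic subunit was not called. Gclm had 264, 268 and 251 CPM in TNF libraries 1, 2 and 3, against 143, 147 and 132 CPM in Control libraries 1, 2 and 3, with no overlap. The log2 fold change was 0.89 ± 0.09 (SE; edgeR adjusted p = 9.00e-05). Gclc had 118, 126 and 103 CPM in TNF libraries 1, 2 and 3, against 120, 101 and 115 CPM in Control libraries 1, 2 and 3. These values interleaved, and the difference of 0.05 ± 0.11 had a 95% interval of -0.19 to 0.29 (edgeR adjusted p = 0.756), with a sign that turned under library totals and in the TPM fits. The TPM ratio of Gclm to Gclc was 2.72 ± 0.137 in TNF and 1.52 ± 0.160 in Control libraries (SD, n = 3 each), without overlap (exact permutation p = 0.1, the smallest possible; 0.125 adjusted). Gclm shares 296 exonic bases with the antisense gene Gm17494 in GENCODE M21, so the limit given for Keap1 applies here too. It also shares 244 exonic bases with the pseudogene Gm6061 on the same strand, which counting by strand would not separate. Gm17494 itself was counted at 1.03 ± 0.487 CPM in TNF and 0.868 ± 0.611 CPM in Control libraries (n = 3 each).

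Gsr encodes glutathione reductase, which returns oxidised glutathione to its reduced form with NADPH. It had 38.7, 41.0 and 35.5 CPM in TNF libraries 1, 2 and 3, against 24.7, 31.7 and 19.2 CPM in Control libraries 1, 2 and 3. Its rise was 0.61 ± 0.16 on the log2 scale (SE; edgeR adjusted p = 0.0219), the highest adjusted p of the 7 genes that rose. It was not called without TNF library 1 (0.60, edgeR adjusted p = 0.0719), without TNF library 2 (0.56, 0.0727) or without Control library 1 (0.59, 0.0616).

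Of the 10 genes, Prdx1 and Srxn1 had the largest differences. Prdx1, a peroxiredoxin that reduces hydrogen peroxide, had 1415, 1487 and 1762 CPM in TNF libraries 1, 2 and 3, against 647, 942 and 608 CPM in Control libraries 1, 2 and 3. Control library 2 stood above the other Control libraries and still below every TNF library. The log2 fold change was 1.09 ± 0.19 (SE; edgeR adjusted p = 0.00237). Srxn1 encodes sulfiredoxin, which repairs peroxiredoxins that peroxide has over-oxidised. It had 488, 487 and 448 CPM in TNF libraries 1, 2 and 3, against 226, 223 and 238 CPM in Control libraries 1, 2 and 3, a log2 fold change of 1.05 ± 0.09 (SE; edgeR adjusted p = 4.91e-05). Both genes about doubled, and the TPM ratio of Prdx1 to Srxn1 was 8.19 ± 1.32 in TNF and 8.11 ± 2.19 in Control libraries (SD, n = 3 each), with overlapping groups (exact permutation p = 1). Txnrd1, the cytosolic thioredoxin reductase, had 235, 282 and 266 CPM in TNF libraries 1, 2 and 3, against 154, 206 and 142 CPM in Control libraries 1, 2 and 3. Its log2 fold change was 0.64 ± 0.15 (SE; edgeR adjusted p = 0.0109), with Control library 2 again the high Control library. The TPM ratio of Prdx1 to Txnrd1 was 18.4 ± 1.87 in TNF and 13.7 ± 0.641 in Control libraries (SD, n = 3 each), without overlap (exact permutation p = 0.1, the smallest possible; 0.125 adjusted).

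Of Hmox1 and Nqo1, targets widely used as readouts of NRF2, Hmox1 rose and Nqo1 was not called. Hmox1, which encodes the inducible haem oxygenase, had 835, 749 and 769 CPM in TNF libraries 1, 2 and 3, against 482, 485 and 477 CPM in Control libraries 1, 2 and 3. The groups were well separated, with a log2 fold change of 0.70 ± 0.10 (SE; edgeR adjusted p = 0.000770). Hmox1 is also abundant in macrophages. The 15 macrophage markers summed to 1804 to 1914 CPM in TNF and to 2225 to 3328 CPM in Control libraries, and none was at 0. Of them 13.3% rose and 46.7% fell, against 16% and 16.4% of all tested genes. Lyz2 made up the largest part of these sums and was not called (925 ± 72.8 CPM in TNF, 1334 ± 402 CPM in Control libraries). The part of macrophages in the level of Hmox1 was not tested. Nqo1, a quinone reductase, had 122, 109 and 178 CPM in TNF libraries 1, 2 and 3, against 165, 224 and 154 CPM in Control libraries 1, 2 and 3. TNF library 3 lay within the Control range, while TNF libraries 1 and 2 lay below it. The difference of -0.41 ± 0.20 had a 95% interval of -0.88 to 0.06 (edgeR adjusted p = 0.159). Leaving out TNF library 3 gave -0.65 with an edgeR adjusted p of 0.0271, and leaving out both libraries numbered 2 gave -0.08. The TPM ratio of Hmox1 to Nqo1 was 6.79, 6.80 and 4.27 in TNF libraries 1, 2 and 3, against 2.89, 2.13 and 3.06 in Control libraries 1, 2 and 3. It was higher in every TNF library than in any Control library (exact permutation p = 0.1, the smallest possible; 0.125 adjusted).

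**Figure D2:**
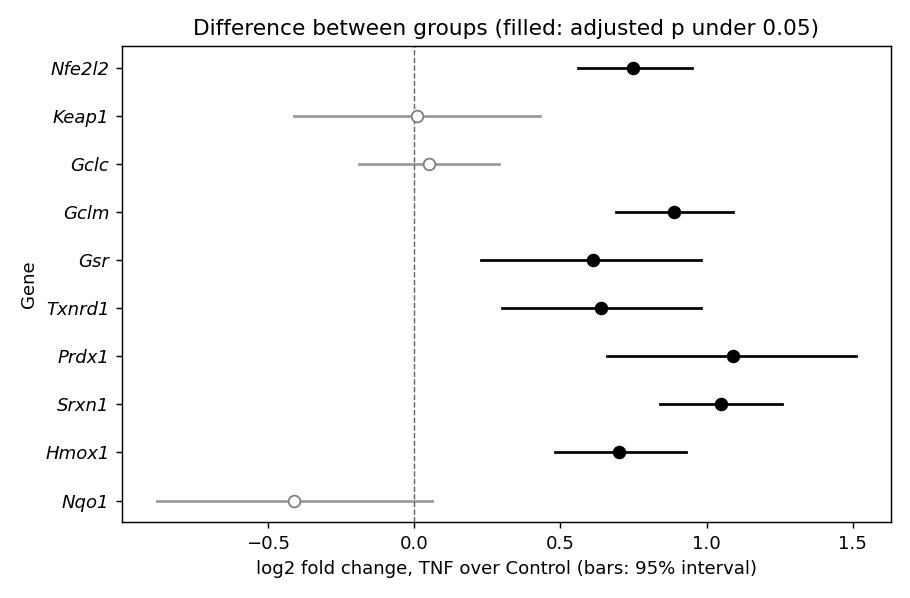
Fitted log2 fold change of TNF over Control for the 10 genes, with approximate 95% intervals; filled points passed an adjusted p of 0.05 in edgeR. The 7 filled points lie between 0.61 and 1.09, while the intervals of Keap1, Gclc and Nqo1 cross 0.

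The 10 genes differed in how much libraries of 1 group scattered. In Control libraries the coefficient of variation of CPM was over 20% for Keap1, Nqo1, Txnrd1, Prdx1 and Gsr, and between 0.795% (Hmox1) and 9.09% (Gclc) for the other 5. The median over all tested genes was 10.4%. Control library 2 was the highest Control library for 8 of the 10, which held for 40.6% of tested genes. In TNF libraries Keap1 (20.9%) and Nqo1 (27.1%) scattered most, with TNF library 3 highest. Control library 2 and TNF library 3 had the lowest 18S shares of all, 1.13% and 1.10%. When the 18S share (log2) was added to the model, again 7 genes rose, Nqo1 had -0.25 (edgeR adjusted p = 0.152) and Keap1 0.16 (0.291). Without both libraries numbered 2, 8 of the 10 genes were higher in TNF and 0 lower, the added gene being the inhibitor Keap1. In that setting 2721 of all 15596 tested genes were higher and 2518 lower.

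**Figure D3:**
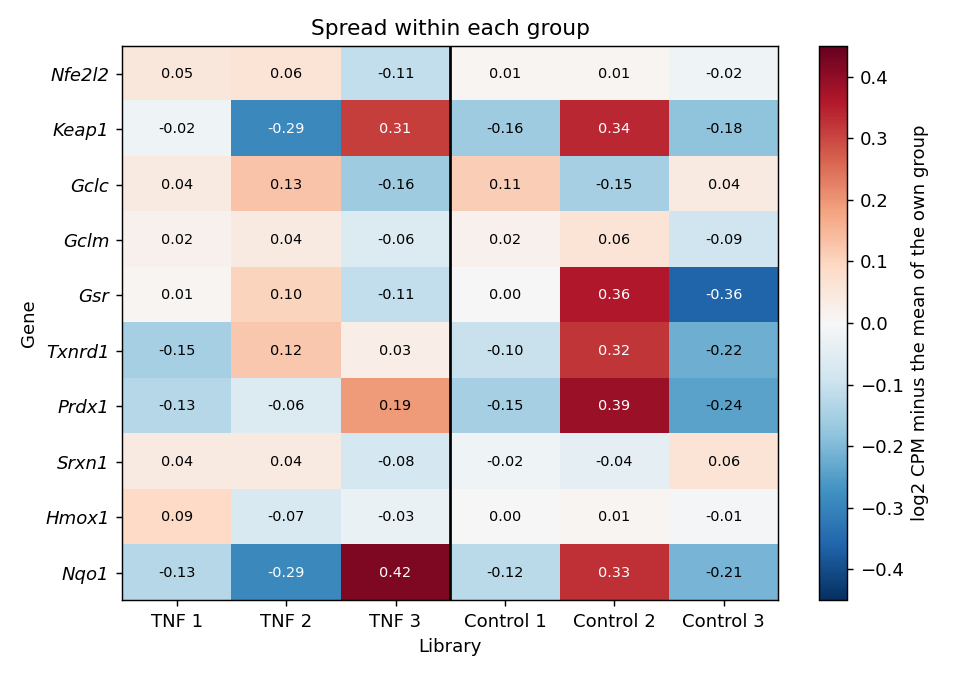
Log2 CPM of each gene (rows) in each library (columns) minus the mean of its own group. Control 2 stands out for Keap1, Gsr, Txnrd1, Prdx1 and Nqo1 (0.32 to 0.39) and TNF 3 for Keap1 and Nqo1 (0.31 and 0.42), while Nfe2l2, Gclm, Srxn1 and Hmox1 stay within 0.11 of their group means.

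On the per-length TPM scale Prdx1 was the most abundant of the 10 in both groups, at 2418 ± 353 TPM in TNF and 1201 ± 205 TPM in Control libraries (SD, n = 3 each), above 99.5% of listed genes. Hmox1 came second, at 917 ± 119 TPM in TNF and 591 ± 40.3 TPM in Control libraries. In TNF libraries Srxn1 (296 ± 24 TPM) came next, followed by Nqo1, Gclm, Nfe2l2 and Txnrd1, of which Nqo1 overlapped the other 3 and Gclm overlapped Nfe2l2. Control libraries had Nqo1 (223 ± 31 TPM) above Srxn1 (151 ± 13.7 TPM) without overlap, so these genes stood in the opposite order. Nfe2l2, Gclm and Txnrd1 overlapped each other in Control libraries. Gclc, Keap1 and Gsr were the lowest in both groups, with Gsr at 32.4 ± 7.01 TPM in TNF, where it overlapped Keap1, and 21.3 ± 2.49 TPM in Control libraries.

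Across the 6 libraries, the genes whose log2 CPM followed Nfe2l2 most closely among 10845 other genes with a mean of at least 5 CPM were Rai14 (Pearson r = 0.9996), Gm6548 (0.9996) and Ifi44 (0.9991). These libraries fall into 2 groups, so r mainly reflects a difference between groups with little scatter within them. Among the 10 genes Srxn1 (0.9940) and Gclm (0.9937) came nearest, at ranks 99 and 109.

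Beyond these 10 genes, 68 further genes of the pathway in 6 lists were tested, of which 21 rose and 18 fell, with a median log2 fold change of 0.08. Against 16% higher and 16.4% lower in the background, the shares were 30.9% and 26.5%. The lists too were chosen with earlier results of these data known, so these shares are a description only. The higher count was 12 without TNF library 1 or without Control library 1, and the lower count was 8 without TNF library 1 or without TNF library 2. Library totals called 11 higher and 16 lower.

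**Figure D4:**
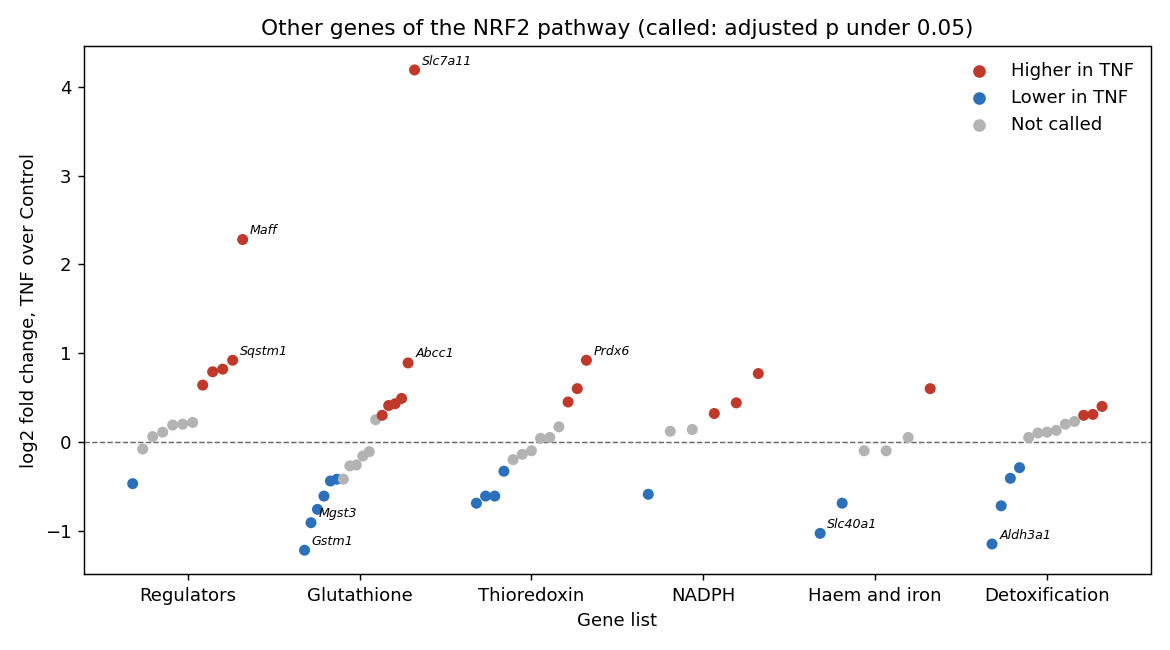
Log2 fold change of TNF over Control for the 68 further genes, by list; red and blue points were called higher and lower in TNF by edgeR (adjusted p under 0.05) and grey points were not called. Slc7a11 (4.19) and Maff (2.28) stand above all others, and every list holds genes of both directions.

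Among 12 other regulators, 5 rose and 1 fell (median log2 fold change 0.21), 41.7% and 8.33% against 16% and 16.4% of all tested genes. Maff, a small MAF partner of NRF2 and related factors, had 50.3, 48.0 and 47.6 CPM in TNF libraries 1, 2 and 3, against 9.85, 9.71 and 10.4 CPM in Control libraries 1, 2 and 3 (log2 fold change 2.28 ± 0.08 SE, edgeR adjusted p = 3.99e-07). Mafg, another small MAF, had 123 ± 14.9 CPM in TNF and 71.4 ± 8.19 CPM in Control libraries (0.79 ± 0.12). Sqstm1 encodes p62, which binds KEAP1 in competition with NRF2, and rose to 2087 ± 140 CPM in TNF, against 1105 ± 29.2 CPM in Control libraries (0.92 ± 0.12). The other regulators that changed, named after their values were seen, were the related factor Nfe2l1 (0.82), the repressor Bach1 (0.64, edgeR adjusted p = 0.0397) and Osgin1 (-0.47). Bach1 was called in only 8 of 18 alternatives: its groups overlapped, and the call was lost without TNF library 2 or 3, without Control library 2 or 3, with the 18S share in the model and in both TPM fits. Osgin1 was called in 15 of 18 and lost without TNF library 2 or 3. The ligase genes Cul3 (0.20, edgeR adjusted p = 0.120) and Rbx1 (0.11, 0.331) were not called.

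Of 18 further glutathione genes, 6 rose and 6 fell (median log2 fold change -0.21), 33.3% each against 16% and 16.4% of all tested genes. Slc7a11, the cystine transporter that supplies cysteine for glutathione, had 42, 44.2 and 42 CPM in TNF libraries 1, 2 and 3, against 2.20, 2.90 and 1.86 CPM in Control libraries 1, 2 and 3. No other of the 68 genes differed as much (log2 fold change 4.19 ± 0.16 SE, edgeR adjusted p = 5.15e-07). Abcc1, an exporter of glutathione conjugates, rose to 460 ± 8.75 CPM in TNF, against 248 ± 11.5 CPM in Control libraries (0.89 ± 0.09). Gstm1, a glutathione transferase, fell to 110 ± 14.2 CPM in TNF, against 257 ± 58.9 CPM in Control libraries (-1.22 ± 0.17), and reads of near-identical Gstm genes could be split between them. The higher count was 3 without TNF library 1 or Control library 1, and the lower count was 2 without TNF library 1 or 2 and 3 without Control library 2. With library totals as the scale 2 rose and 6 fell, and in limma on TPM with a pseudocount of 1, 2 rose and 4 fell.

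Of 13 thioredoxin genes, 3 rose and 4 fell (median log2 fold change -0.10), 23.1% and 30.8% against 16% and 16.4% of all tested genes. Prdx6, a peroxiredoxin that uses glutathione, rose to 220 ± 28.8 CPM in TNF, against 117 ± 11.2 CPM in Control libraries (log2 fold change 0.92 ± 0.12 SE). Txn1, the thioredoxin that Txnrd1 reduces, rose to 247 ± 17.5 CPM in TNF, against 163 ± 9.06 CPM in Control libraries (0.60 ± 0.09). Sesn1, a sestrin, fell to 26.8 ± 1.63 CPM in TNF, against 40.9 ± 0.964 CPM in Control libraries (-0.61 ± 0.08). Prdx3 (0.05, edgeR adjusted p = 0.732) and Txnrd2 (0.04, 0.800), mitochondrial enzymes named after their values were seen, were not called. Of the other called genes, Prdx5 rose (0.45, edgeR adjusted p = 0.0151), while Prdx4 (-0.69), Sesn3 (-0.61) and Txnrd3 (-0.33) fell. Prdx5 and Txnrd3 were called in 11 of 18 alternatives each.

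Both reductases consume NADPH. Of 6 genes of NADPH supply and the pentose phosphate pathway, 3 rose and 1 fell (median log2 fold change 0.23). Among them, Taldo1 and Tkt do not make NADPH themselves. The shares were 50% higher and 16.7% lower, against 16% and 16.4% of all tested genes. Pgd, 6-phosphogluconate dehydrogenase, rose to 491 ± 59.8 CPM in TNF, against 289 ± 23.5 CPM in Control libraries (log2 fold change 0.77 ± 0.12 SE). G6pdx, the first enzyme of the pentose phosphate pathway, changed less (0.32 ± 0.08), as did Taldo1 (0.44 ± 0.13). Tkt, of the same pathway (0.12, edgeR adjusted p = 0.541), and Me1 (0.14, 0.260) were not called. Idh1, named after its value was seen, fell (-0.59 ± 0.18). Only 1 gene rose without TNF library 1, Control library 1 or Control library 3, and 0 fell without TNF library 1, 2 or 3. With library totals as the scale, and in limma on TPM with a pseudocount of 1, 1 rose and 1 fell.

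Of 6 haem and iron genes, 1 rose and 2 fell (median log2 fold change -0.10), 16.7% and 33.3% against 16% and 16.4% of all tested genes. Blvrb, biliverdin reductase B, rose to 113 ± 20.2 CPM in TNF, against 74.6 ± 4.63 CPM in Control libraries (log2 fold change 0.60 ± 0.13 SE). Blvra, biliverdin reductase A, was not called (-0.10, edgeR adjusted p = 0.372). Slc40a1, the iron exporter ferroportin, fell to 38.5 ± 3.11 CPM in TNF, against 78.4 ± 3.50 CPM in Control libraries (-1.03 ± 0.09, edgeR adjusted p = 4.44e-05). Ftl1, the ferritin light chain, fell (-0.69 ± 0.21) but was not called without TNF library 1, TNF library 2 or Control library 1. Hmox2, the constitutive haem oxygenase, had 53.6 ± 5.29 CPM in TNF and 57.6 ± 2.02 CPM in Control libraries and was not called. In limma on TPM with a pseudocount of 1, 0 genes of this list rose and 1 fell.

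Of 13 detoxification genes tested, 3 rose and 4 fell (median log2 fold change 0.11), 23.1% and 30.8% against 16% and 16.4% of all tested genes. Aldh3a1, an aldehyde dehydrogenase, fell to 89.7 ± 18.8 CPM in TNF, against 199 ± 27.4 CPM in Control libraries (log2 fold change -1.15 ± 0.16 SE). Aldh2, its mitochondrial relative, also fell (-0.72 ± 0.20), and the aldo-keto reductase Akr1b8 rose slightly (0.31 ± 0.08), with reads that could be shared among Akr1b genes. Both counts were smaller whichever single library was left out. Without TNF library 1 or Control library 1, 0 rose, without TNF library 2 or 3, 1 rose, and without Control library 2 or 3, 2 rose. Without TNF library 1 or 2, 1 fell, without Control library 3, 2 fell, and in the other such repeats 3 fell. With library totals as the scale, and in limma on TPM with a pseudocount of 1, 0 rose and 2 fell. With the replicate number as a block, 0 rose and 1 fell.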

How the data were processed

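Per the submitters' processing notes, Trim Galore, STAR, StringTie and Salmon were used with build GRCm39, and roles, versions and settings are not given in the sources used here. The authors deposited, per library, estimated counts as whole numbers without a gene column, and TPM with gene symbols. The title line calls the counts normalized, but totals differ between libraries and no scaling was visible. Each count was given the gene on the same line of that library's TPM table. As a check, the 260 zeros coincided, and log2(count/TPM), centred per library, had a median SD of 0.027 across libraries, against 0.413 with lines moved by 1. Every listed gene had at least 10 counts in at least 3 libraries.

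Differences were tested on the counts in R 4.3.3 by the two-sided quasi-likelihood test of edgeR 4.0.16, with group alone in the model, after filterByExpr (15547 genes kept) and TMM scaling. A gene was called where its p, adjusted by Benjamini and Hochberg's method over all genes tested, was under 0.05. SEs are the absolute log2 fold change over the square root of F, and intervals from them are approximate. Members of the gene set had 1094 to 101040 counts per library. Alternatives used limma 3.58.1 and DESeq2 1.42.0. The members and gene lists were chosen with earlier results of these data known, and the letters TGANTCAGC after the promoters were seen. All 10 genes are named, as are the called genes with the lowest adjusted p in each list (at most 3), every called gene of lists with 3 or fewer, the defining markers and the 3 genes most like Nfe2l2; others were named after their values were seen.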

Additional observations from a re-analysis of the deposited data

How the results depend on the processing

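Nfe2l2, Gclm, Prdx1, Srxn1 and Hmox1 were called higher under all 18 alternatives. Txnrd1 was called in all but the threshold of 0.01, and Gsr was lost there and in the 3 repeats named above, so that the number of the 10 genes called higher was 5 at the threshold of 0.01 and 6 to 7 without single libraries. The number called lower was 0 to 1 without single libraries, the 1 being Nqo1 without TNF library 3. The small differences of the uncalled Gclc turned to -0.05 (library totals), -0.02 (limma on TPM with pseudocounts of 1 and 0.1, the 18S covariate, without TNF library 2, without Control library 2) and -0.08 (without both libraries numbered 2), and single libraries left out gave -0.02 to 0.13. Keap1 turned to -0.05 (library totals, both TPM fits), -0.00 (genes with at least 5 CPM in 3 libraries), -0.16 (without TNF library 3), -0.07 (without Control library 1) and -0.08 (without Control library 3), within a range of -0.16 to 0.20 over single libraries left out. All genes called higher numbered 1612 with library totals, 1479 and 1475 in the TPM fits and 1587 at the threshold of 0.01, where 1534 were called lower. Of the 68 further genes, 11 were higher with library totals, 9 in each TPM fit and 11 at the threshold of 0.01, where 6 were lower; single libraries left out gave 12 to 19 higher and 8 to 16 lower. Equal replicate numbers showed no sign of pairing: correlations of same-numbered deviations were -0.30 to -0.01 and 0 of 6 samples correlated best with their own number. With 3 libraries per group, such correlations cannot tell whether equal numbers share a culture or animal. With the replicate number as a block, 7 of the 10 genes were higher and 0 lower, and 12 and 8 of the 68. Causes of these shifts were not tested. Repeats without 1 library leave 2 in that group.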
